A study of Homo sapiens with 6 samples.

Results

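The 36 genes described here are p53-activated genes outside the cell cycle, taken as a list of symbols and sorted by function, and each was found on 1 row of the 34738 genes in the expression table. p53 is a transcription factor that accumulates after DNA damage and other stress, binds DNA as a tetramer and switches on a broad set of genes. Besides the genes that halt the cell cycle, these include death receptors and BCL2-family proteins that start apoptosis, DNA repair factors, enzymes of metabolism and redox balance, and MDM2 and other regulators that act back on p53 itself. In thyroid cancer, loss of p53 function is known mainly from poorly differentiated and anaplastic tumors. Most of these genes also answer to other transcription factors, so that their RNA level is not a readout of p53 alone.

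The RNA came from thyroid cancer cells of the line KHM-5M, which the sample labels name for all 6 libraries, whereas a figure legend of the study names TPC-1 cells for the same expression data. Cells transfected with an siRNA against GDF15 (siGDF15) and control cells (NC) were sequenced in 3 libraries each, described by the study as biological replicates. The methods speak of negative control cells and list a negative control siRNA, while the series description gives a blank control and a legend a vector control, so whether the NC cells received an siRNA could not be settled. If they did not, GDF15 loss and transfection cannot be told apart. The study lists a single siRNA sequence against GDF15. In either case, GDF15 loss and other effects of that siRNA cannot be told apart. No time between transfection and harvest is given in the sources used here. As in any bulk RNA sample, a shift in the mixture of cells and a shift in RNA per cell cannot be told apart.

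Levels are given as FPKM, which corrects fragments for the length of the transcript and for library size and so allows a comparison between genes. Differences are given as log2 fold changes of siGDF15 over NC from a quasi-likelihood fit of the deposited counts in edgeR with TMM normalization, with their standard errors (SE), and the adjusted p-values are Benjamini-Hochberg values over 11867 genes with a mean of at least 1 FPKM. A gene was called higher or lower at an adjusted p under 0.05. The libraries summed to between 51738814 and 68025163 counts, lowest in siGDF15 replicate 2, and by their low values about 4 counts stand for 1 read pair. Mitochondrially encoded genes took 6.39 to 6.78% of counts in NC and 8.53 to 9.17% in siGDF15. TMM, which is set by the bulk of genes, gave factors of 1.03 to 1.04 in NC and 0.958 to 0.972 in siGDF15. A gene at equal FPKM in both groups therefore has a log2 fold change of about 0.1, and without TMM the median of all tested genes moved from 0.00 to -0.10. The part of the mitochondrial share in this offset was not tested.

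The cells carried an epithelial and mesenchymal profile with part of the thyroid program. All 6 epithelial markers had a mean of at least 1 FPKM. Their sums were 108 to 160 FPKM in NC and 136 to 147 FPKM in siGDF15. The 4 mesenchymal markers summed to 756 to 817 and 824 to 867 FPKM. Only FN1 among them rose, at 328 to 413 FPKM in NC and 452 to 504 FPKM in siGDF15. VIM was lower, at 384 to 425 FPKM in NC and 350 to 362 FPKM in siGDF15. CDH2 was also lower without overlap, and ZEB1 overlapped between groups. Of 7 thyroid markers only PAX8 and FOXE1 reached 1 FPKM, and the list summed to 56.9 to 67.9 FPKM in NC and 80.3 to 83.6 FPKM in siGDF15, nearly all of it PAX8. TG, SLC5A5 and NKX2-1 were under 0.22 FPKM in every library, and TSHR has no row in the table. The marker lists of other cell types had lower sums, and whether that RNA came from the line's own cells was not tested. The 4 fibroblast markers, each with a mean of at least 1 FPKM, summed to 12.3 to 16.6 and 12.9 to 14.8 FPKM. The immune markers summed to 17.7 to 19.4 and 16.0 to 17.9 FPKM, almost all from CD68, with PTPRC at no more than 0.00685 FPKM. The endothelial markers stayed under 0.2 FPKM in sum.

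GDF15, the silenced gene and itself activated by p53, was expressed at 22.4, 19.3 and 23.1 FPKM in NC and 10.8, 10.5 and 10.7 FPKM in siGDF15. The groups did not overlap, and the knockdown amounted to -0.92 (SE 0.079, adjusted p = 2.4e-05) on the log2 scale. MDM4, which binds p53 and blocks its activity, was at 4.26, 4.69 and 4.45 FPKM in NC and 4.61, 4.46 and 4.69 FPKM in siGDF15. MDM4 was just inside the limit, with a log2 fold change of 0.14 (SE 0.055, adjusted p = 0.048). That call was lost in 11 of 16 alternatives. It was lost when NC replicate 1 (adjusted p = 0.16), NC replicate 3 (0.073) or siGDF15 replicate 1 (0.10), 2 (0.072) or 3 (0.14) was left out, within a range from 0.013 to 0.61 over all alternatives.

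After GDF15 knockdown, p53-activated genes were called in both directions. Of the 36 members, 34 reached the expression limit and were tested. Of these, 16 (47.1%) were called higher in siGDF15, where 30.0% of all tested genes were, and 9 (26.5%) were called lower, against 31.4% of all tested genes. The split between higher and lower depended on the scaling. It was 16 to 9 with TMM, 13 to 13 with total counts in place of TMM, and 17 to 8 with each library set to the same median. With limma on log2 of FPKM, which differs in test and input as well as in scaling, it was 12 to 12. The median log2 fold change of the tested members was 0.16, that of all tested genes 0.00, and the distance between both medians was the same 0.16 when TMM was left out. Without NC replicate 2 this distance fell to 0.12 and without NC replicate 3 it rose to 0.20. With no expression filter, where many barely expressed genes enter, it was 0.037.

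The changes were small in size. The median absolute log2 fold change was 0.33 for the members and 0.31 for all tested genes. Only TP53INP1 passed the study's limit of a log2 fold change of at least 1 upward (1 of 34 members, 3.03% of all tested genes), and 0 members passed it downward (4.78% of all tested genes), also at an unadjusted p under 0.05 and with DESeq2. Without NC replicate 3, PLK2 passed it as well. Of the 34 tested members, 26 (76.5%) had FPKM values in which the 3 siGDF15 libraries lay on one side of the 3 NC libraries, 14 above and 12 below, where this held for 68.4% of all tested genes in either direction.

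**Figure D1:**
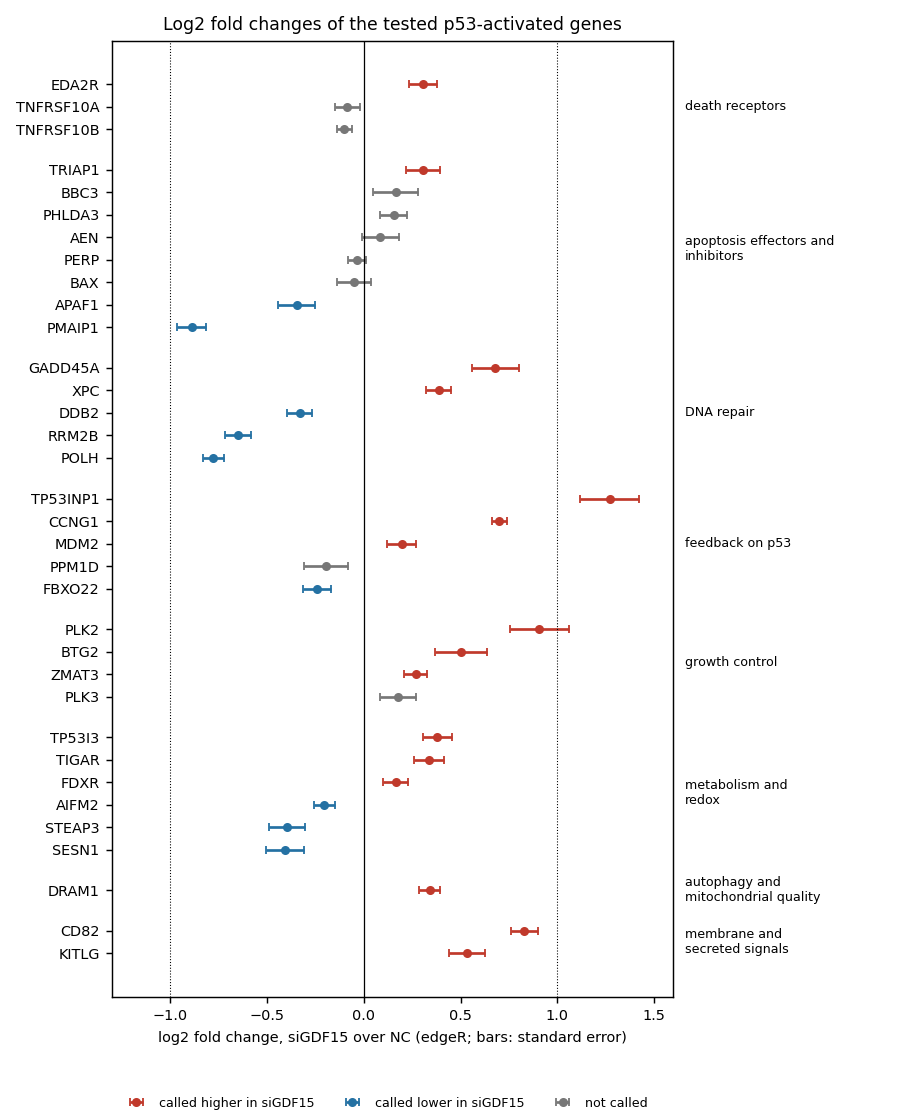
Log2 fold changes of siGDF15 over NC (horizontal axis, edgeR) for the 34 tested p53-activated genes, sorted by function. Points are estimates, bars are standard errors, dotted lines mark -1 and 1, red points were called higher, blue points lower and gray points not called. Calls in both directions occur among the DNA repair, apoptosis, feedback and metabolism genes, and TP53INP1 is the only point beyond a dotted line.

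**Figure D2:**
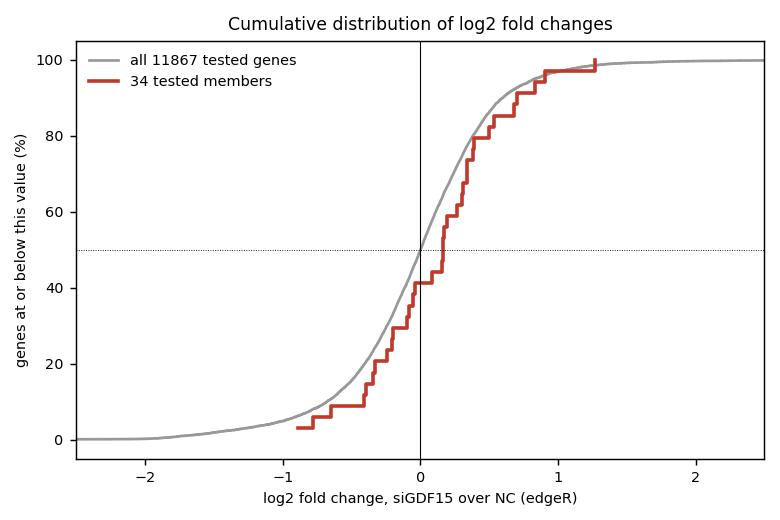
Cumulative share of genes (vertical axis, percent) at or below each log2 fold change of siGDF15 over NC (horizontal axis, edgeR) for the 34 tested p53-activated genes in red and all 11867 tested genes in gray. The red line crosses 50% at 0.16 and the gray line at 0.00, and the red line starts at -0.89, short of the lower tail of the gray line.

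The deposited table annotates 20 of the 36 members to the KEGG p53 signaling pathway, and the calls are given for both sets. Of the 19 annotated members that were tested, 6 (31.6%) were called higher and 7 (36.8%) lower, close to the 30.0% and 31.4% of all tested genes, with a median log2 fold change of -0.09. Their called members ran from PMAIP1 (-0.89) to CD82 (0.83). Of the 15 tested members outside the pathway, 10 (66.7%) were called higher and 2 (13.3%) lower, with a median of 0.31, and their called members ran from POLH (-0.78) to TP53INP1 (1.27). The difference between both sets was not tested.

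The promoters of the members were searched for the p53 half-site consensus, the sequence that 2 of the 4 subunits of the p53 tetramer contact. RefSeq windows from 250 bases before to 50 bases after the annotated start (GRCh38.p14) were at hand for 29 members in 41 windows, and were lacking for TNFRSF10A, TNFRSF10B, PHLDA3, TP53INP1, RRM2B, GADD45A and FBXO22. The half-site, which reads the same on both strands in its consensus, occurred in 6 of the 41 windows (14.6%) and in 2329 of all 35116 windows (6.63%). The 6 genes were DDB2, SESN1, FAS, AEN, PLK2 and FDXR. Of the 29 members with a window, 20.7% held a half-site, against 8.06% of 27305 genes. A pair of half-sites at most 13 bases apart, the form of a full p53 response element, occurred in DDB2 alone among the members and in 10 of all 27305 genes. These are matches of letters within a short window, and many p53 elements lie elsewhere, in introns or farther upstream. The windows of the 4 called members with a match are printed, 2 called lower and 2 called higher, with the half-sites in capitals. SESN1 had 3 windows, DDB2 2 and FDXR 2, and only the window with the match is printed. The SESN1 window lies inside the gene, which the deposited table places from 108984309 to 109094846. The DDB2 window also lies inside its gene, placed there from 47214465 to 47239217. The printed windows lie at chr11:47214724-47215023, plus strand, at chr6:109008939-109009238, minus strand, at chr5:58460037-58460336, minus strand, and at chr17:74872945-74873244, minus strand. They are written 5′ to 3′ in the direction of transcription.
DDB2: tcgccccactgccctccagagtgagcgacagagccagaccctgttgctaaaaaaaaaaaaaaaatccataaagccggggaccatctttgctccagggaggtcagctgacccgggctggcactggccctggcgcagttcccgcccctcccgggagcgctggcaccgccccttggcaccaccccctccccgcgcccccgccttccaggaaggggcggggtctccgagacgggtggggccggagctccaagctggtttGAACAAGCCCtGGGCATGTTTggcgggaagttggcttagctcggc
SESN1: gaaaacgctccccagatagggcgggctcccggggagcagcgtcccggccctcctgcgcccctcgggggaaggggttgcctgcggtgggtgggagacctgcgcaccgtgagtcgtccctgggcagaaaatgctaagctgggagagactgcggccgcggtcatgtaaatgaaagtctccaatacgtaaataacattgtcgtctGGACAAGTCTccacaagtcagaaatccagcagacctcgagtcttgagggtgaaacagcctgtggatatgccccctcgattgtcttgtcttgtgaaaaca
PLK2: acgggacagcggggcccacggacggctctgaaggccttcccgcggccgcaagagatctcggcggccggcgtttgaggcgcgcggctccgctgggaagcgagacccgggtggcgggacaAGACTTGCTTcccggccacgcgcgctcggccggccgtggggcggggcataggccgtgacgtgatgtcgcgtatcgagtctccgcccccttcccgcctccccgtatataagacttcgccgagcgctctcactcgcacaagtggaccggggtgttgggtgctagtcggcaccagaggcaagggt
FDXR: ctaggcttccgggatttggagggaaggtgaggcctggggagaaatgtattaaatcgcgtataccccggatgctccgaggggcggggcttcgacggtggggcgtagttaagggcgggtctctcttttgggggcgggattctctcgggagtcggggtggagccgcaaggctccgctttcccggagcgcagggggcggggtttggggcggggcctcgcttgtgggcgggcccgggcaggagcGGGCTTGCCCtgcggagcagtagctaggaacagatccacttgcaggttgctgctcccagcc
In DDB2 both half-sites lie just downstream of the annotated start of this window, beginning at bases 5 and 16 after it, with a spacer of 1 base. Counted from the start, the match begins at -49 in SESN1, at -132 in PLK2 and at -11 in FDXR. DDB2 and SESN1 were called lower in siGDF15 and PLK2 higher. FDXR was called higher too, with overlapping groups and an adjusted p of 0.0499, a call that was lost in 13 of 16 alternatives.

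Among the DNA repair genes, 3 of 5 members were called lower and 2 higher, where 7286 of all 11867 tested genes were called in either direction. POLH (chromosome 6 from 43576185 to 43620523 in GRCh38, as the deposited table gives it), the translesion polymerase that copies past ultraviolet lesions, was expressed at 6.89, 6.72 and 6.46 FPKM in NC and 3.64, 3.50 and 3.75 FPKM in siGDF15. Every siGDF15 library lay well below every NC library, and the log2 fold change was -0.78 (SE 0.055, adjusted p = 8.3e-06). RRM2B, the p53-inducible small subunit of ribonucleotide reductase that supplies deoxynucleotides to resting cells, went from 21.0, 20.2 and 18.9 FPKM in NC to 12.99, 10.8 and 11.8 FPKM in siGDF15. RRM2B fell without overlap between groups, by a log2 fold change of -0.65 (SE 0.068, adjusted p = 7.2e-05). DDB2, the damage sensor of nucleotide excision repair and the member with the full p53 site printed above, was at 9.77, 9.31 and 10.5 FPKM in NC and 7.22, 7.36 and 7.25 FPKM in siGDF15. The fall of DDB2 was smaller, at -0.33 (SE 0.065, adjusted p = 0.0023).

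The other two repair genes rose. GADD45A, a stress protein that binds PCNA and takes part in repair and growth arrest, was at 20.4, 17.5 and 25.2 FPKM in NC and 30.5, 32.3 and 31.1 FPKM in siGDF15. The NC libraries were spread and still lay below all siGDF15 libraries, with a log2 fold change of 0.68 (SE 0.12, adjusted p = 0.0014). XPC, which recognizes lesions for the same excision pathway as DDB2, was at 8.62, 8.39 and 8.02 FPKM in NC and 9.95, 10.7 and 9.80 FPKM in siGDF15, with a log2 fold change of 0.39 (SE 0.063, adjusted p = 8.6e-04). In GENCODE 29, 318 of 4798 exon bases of XPC also belong to LSM3 on the opposite strand, whose mean went from 9.63 to 7.07 FPKM, and whether the counting used the strand is not given in the sources used here. The calls of all 5 repair genes held in each of 16 alternatives.

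**Figure D3:**
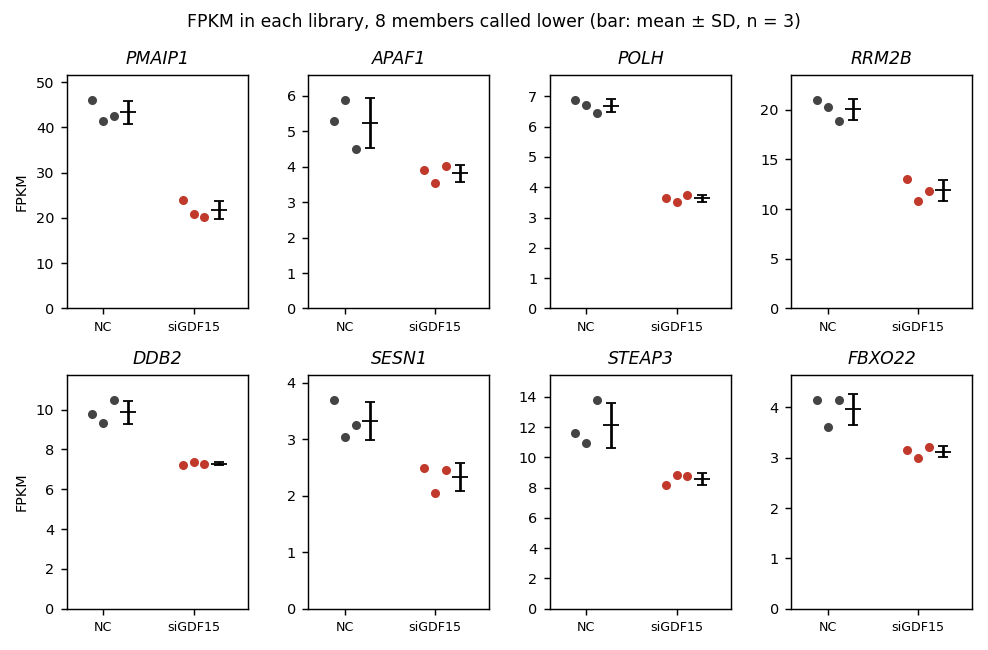
FPKM (vertical axis, from 0) in each library of NC and siGDF15 for 8 of the 9 members called lower. Dots are libraries and the bar beside them is the mean ± SD (n = 3). In each panel the 3 siGDF15 libraries lie below the 3 NC libraries. Relative to the panel's height the gap is wide in PMAIP1 and POLH and narrow in APAF1 and FBXO22.

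Of the 8 tested apoptosis effectors and inhibitors, 2 (25.0%) were called lower and 1 (12.5%) higher. Over all tested genes, 31.4% were called lower and 30.0% higher. Among PMAIP1, BBC3 and BAX, which act at the mitochondria, only PMAIP1 was called. PMAIP1 (NOXA, chromosome 18 from 59899996 to 59904305), a BH3-only protein that neutralizes MCL1, was at 46.2, 41.3 and 42.5 FPKM in NC and 23.9, 21.0 and 20.3 FPKM in siGDF15, the lowest log2 fold change of any member at -0.89 (SE 0.073, adjusted p = 1.8e-05). Its mean level went from 43.3 ± 2.52 FPKM to 21.7 ± 1.94 FPKM (SD, n = 3). BBC3 (PUMA), a BH3-only protein that binds all antiapoptotic BCL2 proteins, was low and overlapped between groups, at 2.72, 2.33 and 2.39 FPKM in NC and 2.62, 2.78 and 2.347 FPKM in siGDF15. BBC3 was not called, at 0.16 (SE 0.12, adjusted p = 0.26). BAX, the pore-forming protein downstream of both, was at 38.9, 34.5 and 44.2 FPKM in NC and 34.4, 35.8 and 35.4 FPKM in siGDF15, with overlapping groups. Its log2 fold change of -0.05 (SE 0.087, adjusted p = 0.64) changed sign to 0.05 without NC replicate 3, the highest NC library, and to 0.00 with each library set to the same median.

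APAF1, the scaffold of the apoptosome that activates caspase-9, was called lower, at 5.30, 5.89 and 4.50 FPKM in NC and 3.90, 3.55 and 4.01 FPKM in siGDF15. Its log2 fold change was -0.35 (SE 0.10, adjusted p = 0.013), and without siGDF15 replicate 2 it was -0.30 with an adjusted p of 0.051, within a range from 7.5e-04 to 0.051 over 16 alternatives. TRIAP1, a small protein that holds back apoptosome formation, was called higher, at 17.7, 15.7 and 19.6 FPKM in NC and 20.6, 19.7 and 20.7 FPKM in siGDF15. The log2 fold change of TRIAP1 was 0.31 (SE 0.086, adjusted p = 0.014), and without TMM it was 0.21 with an adjusted p of 0.065, in a range from 0.0013 to 0.089 over 16 alternatives, 4 of which lost the call. The remaining 3 members were not called, with log2 fold changes between -0.04 and 0.15. PERP, a desmosomal membrane protein, averaged 20.1 ± 0.696 FPKM (SD, n = 3) in NC against 18.2 ± 0.407 FPKM in siGDF15. AEN, an apoptotic nuclease, averaged 14.1 ± 1.97 FPKM against 13.9 ± 0.213 FPKM, and PHLDA3, which competes with AKT for membrane lipids, 34.3 ± 2.78 FPKM against 35.5 ± 1.90 FPKM. In AEN and PHLDA3 the groups overlapped, and in PERP the siGDF15 libraries had the lower FPKM. PHLDA3 was called higher without NC replicate 3, with a log2 fold change of 0.22 and an adjusted p of 0.0094, where its values over 16 alternatives ran from 0.0094 to 0.55. PERP was called lower without TMM (-0.14, adjusted p = 0.030, with 0.030 to 0.83 over 16 alternatives), and AEN took either sign across the alternatives, from -0.03 to 0.17.

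Of the 3 tested members sorted as death receptors, 1 (33.3%) was called higher and 0 lower, against 30.0% and 31.4% of all tested genes. TNFRSF10B (DR5), a receptor for the death ligand TRAIL, was among the most abundant members at 61.6, 62.9 and 62.0 FPKM in NC and 55.7, 52.3 and 53.8 FPKM in siGDF15. TNFRSF10A (DR4), the second death-inducing TRAIL receptor, was at 12.8, 11.7 and 12.8 FPKM in NC and 11.001, 10.5 and 11.2 FPKM in siGDF15. In both genes every siGDF15 library had a lower FPKM than every NC library. With TMM the log2 fold changes were -0.10 (SE 0.041, adjusted p = 0.061) and -0.09 (SE 0.063, adjusted p = 0.27), neither of them called, and without TMM both were called lower at -0.20 (adjusted p = 0.0031) and -0.19 (adjusted p = 0.031). Their adjusted p ranged from 0.0031 to 0.37 and from 0.022 to 0.70 over 16 alternatives. TNFRSF10B was also called lower with the limit lowered to 0.1 FPKM (-0.13, adjusted p = 0.037) and with no filter (-0.15, adjusted p = 0.046). TNFRSF10A was not called in these fits (adjusted p = 0.20 and 0.21).

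EDA2R, a receptor for an ectodysplasin isoform that was sorted into this group, was its only member called higher. It was at 4.82, 4.50 and 4.93 FPKM in NC and 5.84, 5.16 and 5.39 FPKM in siGDF15. The log2 fold change of EDA2R was 0.31 (SE 0.074, adjusted p = 0.007), and with no expression filter its adjusted p was 0.060, in a range from 0.0017 to 0.060 over 16 alternatives. FAS, the receptor of FAS ligand, stayed just under the expression limit with a mean of 0.918 FPKM over the 6 libraries and was not tested in the same fit. Its levels were 1.06, 1.01 and 1.21 FPKM in NC and 0.812, 0.675 and 0.737 FPKM in siGDF15, without overlap. With the limit lowered to 0.1 FPKM, FAS was called lower at -0.48 on the log2 scale (SE 0.095, adjusted p = 0.0031). In GENCODE 29, 380 of 4253 exon bases of FAS also belong to ACTA2 on the opposite strand, with a mean of 1.48 FPKM in NC and 1.98 FPKM in siGDF15.

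Of the 5 regulators that act back on p53, 3 were called higher and 1 lower. Over all tested genes, 30.0% were called higher and 31.4% lower. TP53INP1, a stress protein that promotes the phosphorylation of p53 and also takes part in autophagy, had the highest log2 fold change of any member. It was at 7.79, 8.32 and 5.17 FPKM in NC and 16.5, 15.3 and 15.9 FPKM in siGDF15. All siGDF15 libraries were far above the highest NC library, and the log2 fold change was 1.27 (SE 0.15, adjusted p = 1.4e-04), between 1.08 and 1.40 over 16 alternatives. CCNG1 (chromosome 5 from 163437569 to 163446151), cyclin G1, which recruits a phosphatase to MDM2, was at 43.5, 42.6 and 42.4 FPKM in NC and 65.2, 63.7 and 65.3 FPKM in siGDF15. The groups were far apart, with a log2 fold change of 0.70 (SE 0.039, adjusted p = 2.6e-06).

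MDM2, the ubiquitin ligase that degrades p53 and the best known feedback gene, was called higher only narrowly. It was at 18.7, 16.0 and 19.1 FPKM in NC and 20.1, 18.1 and 19.0 FPKM in siGDF15. The groups overlapped, since the highest NC library was above 2 of the siGDF15 libraries. Its log2 fold change of 0.20 (SE 0.075, adjusted p = 0.0496) was just inside the limit, and the call was lost in 11 of 16 alternatives. Leaving out NC replicate 1 gave an adjusted p of 0.071, NC replicate 2 of 0.073, and siGDF15 replicates 1, 2 and 3 of 0.16, 0.073 and 0.10. Of the 6 fits that leave out a library, the call held only in that without NC replicate 3, at 0.012, and the adjusted p was 0.012 to 0.33 over all alternatives. MDM2 also shares 133 of 13284 exon bases with CPM on the opposite strand, which went from a mean of 0.900 to 2.53 FPKM.

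PPM1D (WIP1), the phosphatase that reverses p53 phosphorylation, was low at 1.51, 1.69 and 1.93 FPKM in NC and 1.29, 1.31 and 1.56 FPKM in siGDF15. The groups overlapped and PPM1D was not called, at -0.20 (SE 0.11, adjusted p = 0.17), although without TMM it was, at -0.30 with an adjusted p of 0.048, in a range from 0.048 to 0.46 over 16 alternatives. FBXO22, a ubiquitin ligase subunit that targets methylated p53, was at 4.15, 3.61 and 4.14 FPKM in NC and 3.16, 3.00 and 3.21 FPKM in siGDF15, all below NC. Its log2 fold change of -0.24 (SE 0.072, adjusted p = 0.019) lost its call without NC replicate 1 (adjusted p = 0.069), siGDF15 replicate 1 (0.059) or siGDF15 replicate 2 (0.066), within a range from 0.0021 to 0.069 over 16 alternatives.

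**Figure D4:**
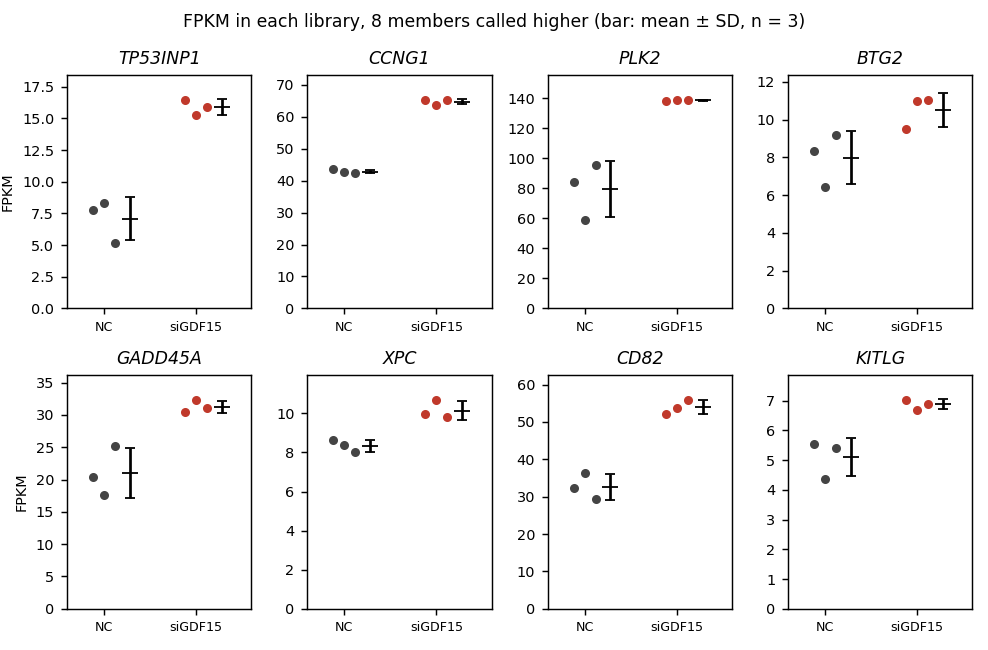
FPKM (vertical axis, from 0) in each library of NC and siGDF15 for 8 of the 16 members called higher. Dots are libraries and the bar beside them is the mean ± SD (n = 3). The siGDF15 libraries lie above the NC libraries in each panel, and in PLK2, GADD45A and TP53INP1 the NC libraries spread more widely than the siGDF15 libraries.

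The growth control genes rose or were not called. PLK2 (chromosome 5 from 58453982 to 58460086), a polo-like kinase of the stress response, was the most abundant member, at 84.1, 58.9 and 95.9 FPKM in NC and 139, 139 and 139 FPKM in siGDF15. NC replicate 2 was lowest, the siGDF15 libraries were nearly equal, and the groups did not overlap. The log2 fold change of PLK2 was 0.91 (SE 0.15, adjusted p = 0.001), ranging from 0.73 without NC replicate 2 to 1.07 without NC replicate 3. BTG2, an antiproliferative partner of the CCR4-NOT deadenylase, was at 8.32, 6.42 and 9.17 FPKM in NC and 9.48, 10.98 and 11.1 FPKM in siGDF15. The lowest siGDF15 library was only slightly above the highest NC library, and the log2 fold change was 0.50 (SE 0.13, adjusted p = 0.01), from 0.36 without NC replicate 2 to 0.62 without NC replicate 3. ZMAT3, an RNA-binding regulator of splicing, was at 4.51, 4.17 and 4.37 FPKM in NC and 5.14, 4.71 and 4.76 FPKM in siGDF15, without overlap. ZMAT3 rose by 0.27 (SE 0.058, adjusted p = 0.0039) on the log2 scale, a change that limma on log2 of FPKM did not call (adjusted p = 0.060 and 0.059 at a pseudocount of 1 and 0.1, and 2.3e-04 to 0.060 over 16 alternatives). PLK3, a related stress kinase, averaged 4.04 ± 0.419 FPKM in NC against 4.25 ± 0.0897 FPKM (SD, n = 3). It was not called at 0.18 (SE 0.094, adjusted p = 0.14), and was called without NC replicate 3 (0.27, adjusted p = 0.020, with 0.020 to 0.51 over 16 alternatives).

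Of the 6 metabolism and redox genes, 3 (50.0%) were called higher and 3 (50.0%) lower, against 30.0% and 31.4% of all tested genes. SESN1, a sestrin that restrains mTORC1, has 1 of its 3 promoter windows printed above. It was at 3.70, 3.04 and 3.25 FPKM in NC and 2.497, 2.05 and 2.45 FPKM in siGDF15. SESN1 fell, with -0.41 (SE 0.10, adjusted p = 0.0069) on the log2 scale. STEAP3, a metalloreductase of endosomal iron, was at 11.6, 10.9 and 13.8 FPKM in NC and 8.14, 8.81 and 8.74 FPKM in siGDF15, with a log2 fold change of -0.40 (SE 0.094, adjusted p = 0.0063). In both genes each siGDF15 library was below each NC library. AIFM2 (FSP1), an oxidoreductase that protects membranes from lipid peroxidation, averaged 7.39 ± 0.0853 FPKM in NC against 5.96 ± 0.221 FPKM (SD, n = 3) and fell, at -0.20 (SE 0.054, adjusted p = 0.011) on the log2 scale.

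TP53I3, a quinone oxidoreductase-like protein, was at 8.78, 9.51 and 8.05 FPKM in NC and 10.4, 11.01 and 10.5 FPKM in siGDF15, with a log2 fold change of 0.38 (SE 0.075, adjusted p = 0.0024). TIGAR, a phosphatase that lowers fructose-2,6-bisphosphate and thereby glycolysis, was at 3.25, 2.83 and 3.35 FPKM in NC and 3.72, 3.56 and 3.80 FPKM in siGDF15. The log2 fold change of TIGAR was 0.34 (SE 0.077, adjusted p = 0.005), and 42.6% of its exon bases are shared with a transcript of the gene AC008012.1 on the same strand, which has no row in the table. FDXR, the mitochondrial ferredoxin reductase, was at 7.49, 6.86 and 7.47 FPKM in NC and 7.90, 7.28 and 7.59 FPKM in siGDF15, with overlapping groups. Its log2 fold change of 0.16 (SE 0.063, adjusted p = 0.0499) lost the call in 13 of 16 alternatives. Leaving out NC replicate 1 gave an adjusted p of 0.090, NC replicate 2 of 0.13, and siGDF15 replicates 1, 2 and 3 of 0.13, 0.083 and 0.10, in a range from 0.017 to 0.42 over all alternatives.

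The remaining members rose where they were tested. CD82 (chromosome 11 from 44564427 to 44620358), a tetraspanin that restrains migration, was at 32.2, 36.2 and 29.5 FPKM in NC and 52.2, 53.7 and 55.9 FPKM in siGDF15. No library overlapped, and the log2 fold change was 0.83 (SE 0.072, adjusted p = 2.4e-05). KITLG, the secreted and membrane-bound ligand of the receptor KIT, was at 5.54, 4.37 and 5.43 FPKM in NC and 7.03, 6.70 and 6.91 FPKM in siGDF15, with a log2 fold change of 0.53 (SE 0.094, adjusted p = 0.0013). DRAM1, a lysosomal membrane protein of autophagy, was at 7.00, 6.72 and 6.64 FPKM in NC and 7.89, 8.06 and 8.01 FPKM in siGDF15, with a log2 fold change of 0.34 (SE 0.055, adjusted p = 8.6e-04). SPATA18 (Mieap), a mitochondrial quality protein, was barely detected and not tested. It had 9, 0 and 11 counts in NC, under the 12 counts that a count of 0 allows, and 25, 25 and 33 counts in siGDF15.

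Lists of other genes of the p53 pathway were counted in the same way. Of 32 further p53-activated genes, 28 were tested, 8 (28.6%) called higher and 7 (25.0%) lower, near the 30.0% and 31.4% of all tested genes. Their median log2 fold change was -0.08, and without TMM these counts were 6 and 12. GDF15, the silenced gene, is among the 32 and among the 7 called lower, a call that the knockdown itself sets. CDKN1A (p21), the p53 target that inhibits cyclin-dependent kinases, was at 93.3, 76.3 and 91.5 FPKM in NC and 98.5, 97.9 and 97.5 FPKM in siGDF15, with a log2 fold change of 0.27 (SE 0.077, adjusted p = 0.014) that was called in 12 of 16 alternatives (adjusted p from 0.0015 to 0.095). Past a log2 fold change of 1 in size were FUCA1, a lysosomal fucosidase (1.88, SE 0.081, adjusted p = 8.4e-07), E2F7, a repressor of the E2F family (-1.08, SE 0.076, adjusted p = 8.4e-06), and PIDD1, a death domain scaffold (-1.01, SE 0.066, adjusted p = 5.5e-06). PIDD1 was at -0.97 without NC replicate 3 and at -0.996 without siGDF15 replicate 3, and its log2 fold change was -0.85 to -1.11 over 16 alternatives. Of 24 regulators of p53, 22 were tested, 7 (31.8%) called higher and 9 (40.9%) lower, against the same 30.0% and 31.4%, with a median log2 fold change of -0.06. AURKA, a mitotic kinase that phosphorylates p53, fell most, at -1.60 (SE 0.074, adjusted p = 1.1e-06).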

How the data were processed

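RNA of 3 NC and 3 siGDF15 libraries was poly(A)-selected and sequenced as read pairs of 150 bases. Per the labels, the authors used fastp, HISAT2, StringTie and edgeR with GRCh38, in versions not given in the sources used here. The authors deposited FPKM values and expected counts, whole numbers not scaled between libraries. The tool that wrote the counts is not given in the sources used here, and their low values are mostly in steps that put 1 read pair at about 4 counts. No column of values per library was left out (0).

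Counts were tested with edgeR 4.0.16 in R 4.3.3 (TMM, quasi-likelihood, two-sided, mean of at least 1 FPKM, Benjamini-Hochberg over 11867 genes), and the code was tested on simulated data. Alternatives changed the size factors, the filter, the counts per read pair, the replicate block or the libraries (each left out in turn), or used DESeq2 1.42.0. limma 3.58.1 on log2 of FPKM plus a pseudocount (1 or 0.1) changed the test, the input and the scaling together. Standard errors were derived from the F statistic. A count of 0 allows for 3 read pairs, or 12 counts, and covers counting error only. Promoters came from RefSeq, gene positions from the deposited table (GRCh38) and exon overlaps from GENCODE 29, where all 36 members matched by identifier. The annotation release behind the table is not given, and its gene ends differ from GENCODE 29 in many members.

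Members, lists and tests were chosen with earlier results of these data known, and the lists of other p53-activated genes, p53 regulators and cell type markers were written by hand. By rule, values per library were given for MDM2, PPM1D, members under the filter and up to 4 called members of a group. In the repair and metabolism groups 1 more called gene each, and the uncalled BBC3, BAX, TNFRSF10A and TNFRSF10B, were added after their values were seen. Named of the other lists were GDF15, MDM4, CDKN1A and genes past a log2 fold change of 1 in size. Some genes that this rule or the marker lists name are not reported here. Python 3.11.15 and matplotlib 3.10.9 were used for tables and figures.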

Additional observations from a re-analysis of the deposited data

How the results depend on the processing

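Of the 25 called members, 18 kept their direction and call under each of 16 alternatives. The exceptions were MDM2, FDXR, FBXO22, TRIAP1, ZMAT3, APAF1 and EDA2R. The number of members called higher stayed between 12 and 18 and that called lower between 7 and 13. With each library left out in turn, 1 to 2 members were called higher with a log2 fold change of at least 1, and the median of the members lay between 0.12 and 0.20. That median was 0.062 with counts scaled by their total, 0.22 with libraries set to the same median, 0.052 and 0.059 with limma at a pseudocount of 1 and 0.1, 0.13 at a limit of 0.1 FPKM, and 0.11 with no filter. In the same settings the median of all tested genes was -0.10, 0.06, -0.08, -0.10, 0.01 and 0.07. Of the other p53-activated genes 12, GDF15 among them, were called lower with counts scaled by their total. Uncalled genes near 0 changed sign: BAX (0.0031 with libraries set to the same median, and -0.14 to 0.049 with a library left out), PERP (0.019 with libraries set to the same median) and AEN (-0.016 with counts scaled by their total, -0.0088 with limma at either pseudocount, -0.027 to 0.17 with a library left out).

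No shared effect of the replicate number was visible. The deviations of same-numbered libraries from their group means correlated at 0.028, -0.075 and 0.046 over the tested genes. With 3 libraries per group, this cannot show whether same-numbered libraries were prepared together. With the replicate number as a block, 15 members were called higher and 9 lower, with a median of 0.16, and FDXR lost its call.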

Other observations

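The NC libraries varied more than the siGDF15 libraries in most members. The SD of log2 CPM (counts scaled to library size) was larger in NC for 28 of the 34 tested members (82.4%), and for 63.8% of all tested genes. The NC to siGDF15 values were 0.37 and 0.017 for PLK2, 0.36 and 0.040 for TP53INP1, 0.27 and 0.13 for BTG2, and 0.27 and 0.059 for GADD45A. By FPKM, NC replicate 2 was the lowest NC library for 21 of the 34 members and NC replicate 3 the highest for 15. PLK2, GADD45A and BTG2 were lowest in NC replicate 2 and highest in NC replicate 3, whereas TP53INP1 and CD82 were lowest in NC replicate 3 and highest in NC replicate 2. All 6 epithelial markers had the same order as PLK2, with KRT8 at 15.0, 11.3 and 21.3 FPKM in NC. FN1, ZEB1 and PAX8 had the order of TP53INP1, with FN1 at 361, 413 and 328 FPKM in NC. The mesenchymal markers VIM and CDH2 had neither order, with VIM at 384, 391 and 425 FPKM and CDH2 at 4.35, 4.09 and 4.14 FPKM in NC. The share of all tested genes with either order was not counted. The cause of this spread was not tested.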
